A study of Bos taurus and Cervus elaphus with 24 samples.

Results

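The genes described here carry the array names of nuclear subunits of respiratory complexes II to V and of cytochrome c, and were measured in the blood of lactating and dry cattle and deer. They were taken by name: every non-control probe whose gene name on the array was SDHA, SDHB, SDHC or SDHD, CYC1 or CYCS, or began with UQCR, with COX and a digit from 4 to 8, or with ATP5. The rule found 47 genes with 126 probes, of 25232 gene names and 43653 probes on the array. Complex II had 4 genes, complex III with cytochrome c had 10, complex IV had 16 and complex V had 17. Not every member is a subunit: ATP5SL and ATP5S are counted with complex V by their array names, but their current symbols are DMAC2 and DMAC2L, and COX7A2L, counted with complex IV, is known for joining complexes into supercomplexes. Each gene is represented below by its brightest probe, the one with the highest mean signal in the dye that carried the animals' RNA. Of the 126 probes, 114 were well above background on all 24 arrays, and 45 of the 47 genes were.

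The study followed 4 Holstein-Friesian cattle (HF, a dairy breed), 4 Polish Red cattle (PR, a native Polish breed) and 4 deer (Cervus elaphus). Each animal was bled in the dry period, when it was not milked or nursing, and at peak lactation, which gives 6 groups of 4 arrays. The labels give no treatment, diet or age. They describe the samples as peripheral blood nuclear cells, and blood was drawn into tubes that stabilise RNA. Each array compared an animal's RNA, labelled with the dye Cy5, with a common reference pooled from 20 other cattle, labelled with Cy3. All values below are log2 of Cy5 over Cy3 after normalization, so 0 means the level of the cattle reference, and differences between groups are differences of these log2 ratios. In such bulk samples, fewer cells of a type and less RNA per cell cannot be told apart. Deer RNA was hybridised to probes of cattle sequence.

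The respiratory chain of the inner mitochondrial membrane passes electrons from NADH and succinate to oxygen and uses the proton gradient this makes to build ATP. Complex II (succinate dehydrogenase) is also an enzyme of the citric acid cycle, complex III hands electrons to the mobile carrier cytochrome c, complex IV (cytochrome c oxidase) passes them to oxygen, and complex V (ATP synthase) makes ATP. Lymphocytes and monocytes rely on this chain, whereas neutrophils hold few mitochondria and live largely on glycolysis, and mature mammalian red cells have none. Complex II is wholly encoded in the nucleus, while complexes III, IV and V each also need subunits made from mitochondrial DNA.

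One array stood apart. On the array of PR cow 1 in the dry period the median Cy5 intensity was 2068, against 108 to 254 on the other 23. It had 42941 probes above background (30825 to 39108 elsewhere) and 696 outlier spots (0 to 71 elsewhere). After background correction, all-probe Cy5 brightness on it had a median of 11.02 on the log2 scale, against 7.07 to 8.64 on the others. Medians, counts of genes and named differences between groups that use this array are therefore also given without it, while values averaged over both states of an animal and other settings of the processing include it. All groups share a single estimate of the spread in the fit, so this array also enters the p-values of comparisons between other groups. The log2 ratios of all probes had a standard deviation of 0.52 and 0.66 on the arrays of deer 2 and 4 in lactation, against 0.80 to 0.85 on the other deer arrays. On these arrays of deer 2 and 4 the median Cy5 intensity was 122 and 144. After background correction their all-probe log2 medians were 8.64 and 7.71 in Cy5 and 8.72 and 7.91 in Cy3. The other deer arrays had 7.20 to 7.30 in Cy5 and 6.63 to 7.06 in Cy3. The part of the background correction in the narrow spread was not tested.

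Markers of the expected blood cells were present. The leukocyte marker PTPRC, the 7 T cell, 5 B cell and 6 monocyte markers and 6 of the 7 neutrophil markers were above background on all 24 arrays, as were 5 of 10 erythroid markers. Neutrophil and erythroid transcripts were thus measured beside those of the mononuclear cells.

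In dry HF cows the 47 genes had a median log2 ratio per array of 0.10 ± 0.09 (SD, n = 4), and in lactating HF cows 0.10 ± 0.12. Dry PR cows gave -0.30 ± 0.53, and lactating PR cows 0.05 ± 0.06. Deer gave 0.06 ± 0.09 when dry and 0.11 ± 0.08 in lactation. The 4 dry PR arrays were at -1.09, 0.09, -0.14 and -0.05, so their wide spread came from cow 1, and without it the mean was -0.03 ± 0.12 (n = 3). Apart from that array, the cattle arrays all lay between -0.14 and 0.21.

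**Figure D1:**
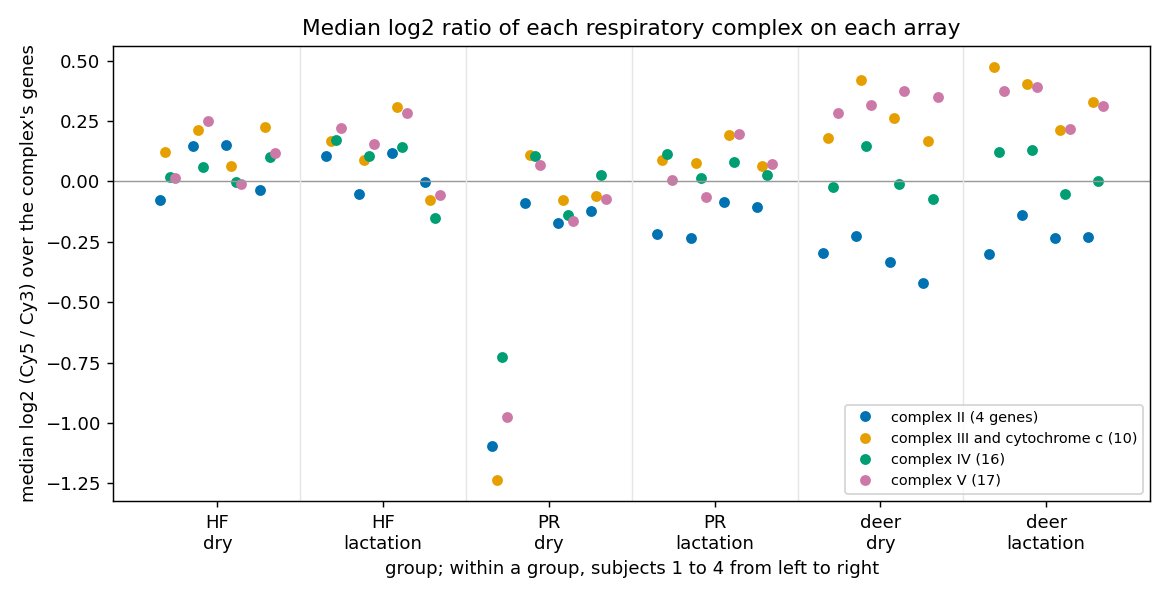
Median log2 ratio of Cy5 over Cy3 over the genes of each respiratory complex, on each of the 24 arrays; the horizontal axis gives the 6 groups with subjects 1 to 4 from left to right. The array of PR cow 1 in the dry period lies far below 0 in all 4 complexes, and on the deer arrays complexes III and V lie above complex II.

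The complexes kept together on the PR dry array of cow 1. Complex II had a median there of -1.09, complex III with cytochrome c -1.24, complex IV -0.73 and complex V -0.98. Of the 45 genes tested in cattle, 38 (84.4%) had their lowest value of all 16 cattle arrays on it, against 30.4% of all probes tested. All 4 genes of complex II, all 10 of complex III with cytochrome c, 9 of 14 in complex IV and 15 of 17 in complex V did so. Relative to the other 3 dry PR arrays the genes were lower by a median difference of -1.03, while the median over all probes was -0.09. The background-corrected Cy5 brightness of the 47 genes was not low there. Its log2 median was 12.50, within the 11.88 to 12.77 of the other dry PR arrays, while the median over all probes was the highest of the 24 arrays in both dyes, 11.02 in Cy5 and 9.64 in Cy3. The genes' Cy3 median was 12.26, above the 11.38 to 11.70 of the other dry PR arrays. The part of that signal in the low ratios was not tested.

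**Figure D2:**
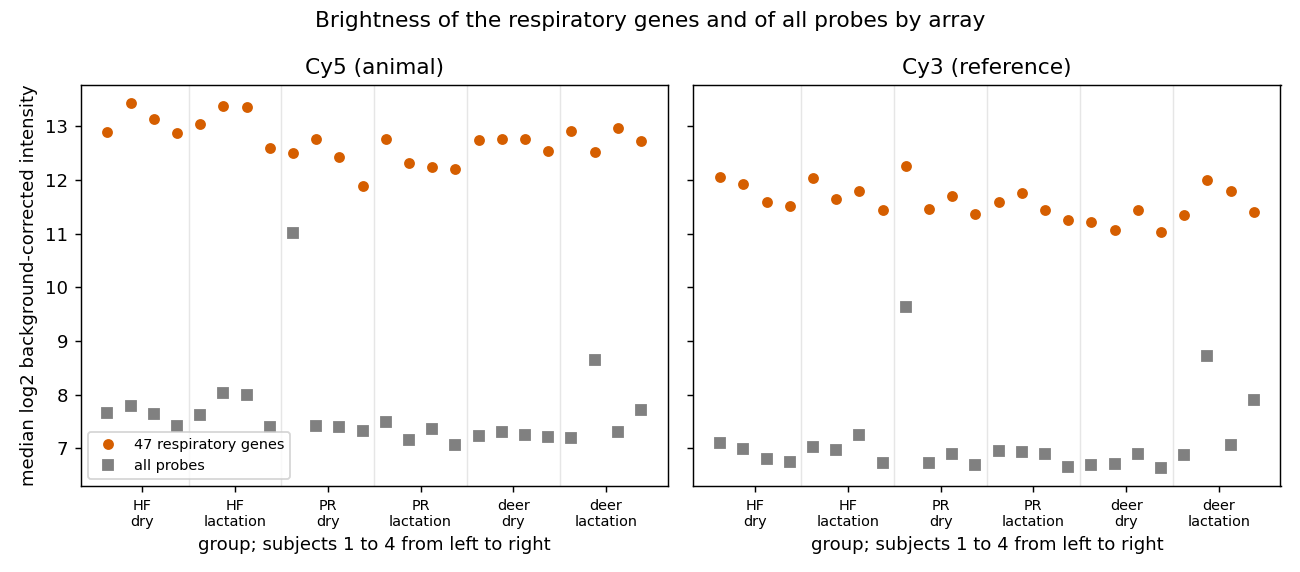
Median log2 background-corrected intensity of the 47 respiratory genes (circles) and of all probes (squares) on each of the 24 arrays, in the animal's dye Cy5 on the left and the reference dye Cy3 on the right. On the array of PR cow 1 in the dry period the all-probe medians are 11.02 and 9.64 while the genes' Cy5 median, 12.50, is among those of its group.

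The first question was whether the subunits differ between peak lactation and the dry period in each breed or species. In HF cows no difference was detectable with 4 animals. None of the 45 genes tested passed an adjusted p of 0.05 in the limma fit (Benjamini-Hochberg over all 33096 probes tested, of which 3, or 0.00906%, passed), and none of the 45 had an unadjusted p under 0.05. With the dry array of PR cow 1 left out of the fit, again 0 of the 45 passed. Then 2 of the 45 had an unadjusted p under 0.05, as did 3291 of the probes. The median difference of the 45 genes was 0.01, with 25 of 45 higher in lactation, beside -0.01 for all probes. When arrays were centred on their median it was -0.05 with 10 of 45 higher, beside -0.05 for all probes. By complex the medians were 0.03 for II, 0.01 for III with cytochrome c, -0.02 for IV and 0.04 for V. The 4 cows went different ways: the median change of the 47 genes was 0.17 in cow 1, -0.08 in cow 2, 0.13 in cow 3 and -0.25 in cow 4, with 41, 16, 37 and 14 genes higher in lactation. All dry HF arrays were at position 1 on their slides and the lactating ones at position 3 or 4. Within HF, array position and state therefore cannot be told apart. With array position as a factor in the fit, the median difference was -0.20.

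The catalytic and electron-carrying subunits of HF cows all lay close to 0. SDHA, the flavoprotein that oxidises succinate, differed by -0.09 and SDHB, the iron-sulfur subunit, by 0.10, which were the lowest and highest values of complex II. The membrane anchors SDHC and SDHD differed by 0.06 and -0.00. In complex III the hinge protein UQCRH had the lowest value, -0.16, and CYCS, cytochrome c itself, the highest, 0.09. UQCRFS1, the Rieske iron-sulfur protein, differed by 0.06 and CYC1, cytochrome c1, by 0.08. The catalytic ATP synthase subunits ATP5A1 (alpha) and ATP5B (beta) differed by 0.13 and 0.04.

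In HF the dry and lactation arrays did not overlap for 2 of the 45 genes (4.44%), where they did not overlap for 6.42% of 33037 probes. In both genes the lactating cows had the lower values. ATP5G2 (now ATP5MC2), a gene for the c-ring subunit of ATP synthase, was at -0.05, 0.11, 0.09 and 0.31 in dry HF cows 1 to 4 and at -0.05, -0.07, -0.20 and -0.14 in lactation. It was lower in 4 of 4 cows, by -0.23 (SE 0.14, adjusted p = 0.792, limma). COX4I1, the widely expressed form of subunit 4 of complex IV, was at -0.05, -0.09, -0.08 and 0.21 in dry cows and at -0.11, -0.18, -0.27 and -0.16 in lactation. Its difference was -0.18 (SE 0.11, adjusted p = 0.789, limma), again lower in 4 of 4 cows. Neither passed the test, and in both genes the gap between the groups was small. At the other end, COX7A1, the heart and muscle form of subunit 7A, had the highest complex IV value, 0.27, and ATP5F1 (now ATP5PB, the peripheral stalk b subunit) the highest of complex V, 0.26 and higher in 4 of 4 cows. COX7A1 turned to -0.03 without cows 2 and 3. COX6B2 had the lowest complex IV value, -0.18.

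In PR cows nearly all of these genes had higher values in lactation, but none passed the test and most of the difference came from 1 array. Of 45 genes, 43 were above 0, with a median of 0.35 beside 0.02 for all probes. None passed an adjusted p of 0.05, and 0% of the 32564 probes did (1815 probes and 16 of the 45 genes had an unadjusted p under 0.05). The lowest adjusted p of any member was 0.847. Without the dry array of cow 1 the median was 0.10 and 34 of 45 genes were above 0, beside -0.01 for all probes. By complex the median went from 0.21 to -0.03 in II, from 0.39 to 0.22 in III with cytochrome c, from 0.36 to 0.06 in IV and from 0.36 to 0.12 in V. In the 4 PR cows the median change was 1.05, -0.08, 0.27 and 0.15, with 43, 15, 42 and 31 of 47 genes higher in lactation. Both arrays of cow 1 were on 1 slide and both of cow 4 on another. Those of cows 2 and 3 were on different slides, so slide and state cannot be told apart within these cows. Besides the slide of cow 1, 2 slides held both states. The median difference on them was 0.12 (dry cow 3 and lactating cow 2) and 0.17 (dry cow 4 and lactating cows 3 and 4).

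**Figure D3:**
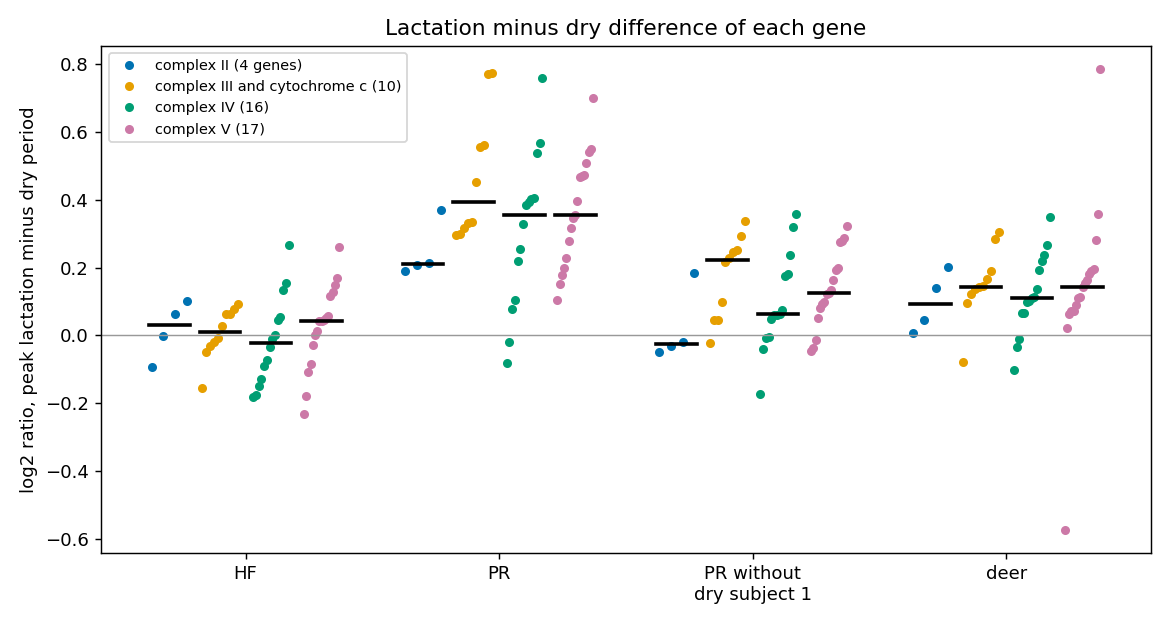
Difference in log2 ratio between peak lactation and the dry period for each gene (points), by complex, in HF cows, PR cows, PR cows without the dry array of cow 1, and deer; short lines mark medians. The PR points lie mostly above 0 with a median of 0.35, which is 0.10 without that array, while the HF median is 0.01 and the deer median 0.14.

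The largest PR differences were in small accessory subunits of complexes III, IV and V. UQCRH was at -2.34, 0.41, -0.53 and -0.33 in dry PR cows 1 to 4 and at -0.25, 0.14, 0.16 and 0.26 in lactation, a difference of 0.78 (SE 0.34) that was 0.23 without dry cow 1. The groups overlapped, since dry cow 2 had the highest value of all 8. UQCRB, which binds the quinone site of complex III, was at -1.97, 0.38, -0.63 and -0.46 when dry and -0.13, 0.14, 0.26 and 0.14 in lactation. Its difference of 0.77 (SE 0.33) became 0.34. COX7A2, the widely expressed form of subunit 7A, differed by 0.76 and by 0.32 without dry cow 1, and ATP5O, the subunit that joins the stalk to the catalytic head of ATP synthase, by 0.70 and 0.28. ATP5O was also the sole member in the authors' deposited tables of selected probes: it was 1 of 158 probes they listed for PR, and no member was among their 437 for HF or 576 for deer.

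ATP5I (now ATP5ME, a membrane subunit of ATP synthase) had the lowest unadjusted p of the PR comparison among the members, 0.00652. It was at -1.15, 0.09, -0.33 and -0.04 in dry cows and 0.22, 0.02, 0.42 and 0.09 in lactation, a difference of 0.54 (SE 0.18, adjusted p = 0.847, limma) that was 0.28 without dry cow 1. Cow 2 went the other way, so the groups overlapped. Groups did not overlap for 2 of the 45 PR genes, where they did not for 2.14% of 32186 probes. Without dry cow 1 the same 2 were separate, where 4.29% of 31736 probes were. UQCR10, a small subunit of complex III, was at -0.22, 0.05, -0.04 and 0.10 when dry and at 0.13, 0.27, 0.51 and 0.26 in lactation, higher in 4 of 4 cows by 0.32 (SE 0.12, adjusted p = 0.847, limma) and by 0.25 without dry cow 1. COX7C, a small subunit of complex IV, was at -1.71, -0.10, -0.22 and -0.16 when dry and at 0.09, -0.07, 0.05 and 0.02 in lactation. It was also higher in 4 of 4 cows, by 0.57, or 0.18 without dry cow 1.

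In complex II the PR differences ran from 0.19 for SDHA to 0.37 for SDHD, which was 0.18 without dry cow 1. In complex III the smallest was that of CYC1, 0.30, or 0.05 without that array. The sign of 9 genes turned without dry cow 1: SDHA from 0.19 to -0.02, SDHB from 0.21 to -0.05, SDHC from 0.21 to -0.03, UQCRFS1 from 0.30 to -0.02, COX4I1 from 0.08 to -0.04, COX8A from 0.25 to -0.01, ATP5D from 0.18 to -0.05, ATP5G2 from 0.15 to -0.04 and ATP5H from 0.28 to -0.01. All went from above to below 0. SDHA shows the pattern: dry PR cows were at -0.96, -0.10, -0.11 and -0.15 and lactating ones at -0.19, -0.18, -0.12 and -0.07, so only dry cow 1 lay outside the others. ATP5SL (now DMAC2, an assembly protein despite its array name) had the lowest complex V value, 0.11, and 0.09 without dry cow 1. COX6B2 had the lowest value of all, -0.08, which was -0.17 without it.

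In deer 41 of 46 genes were higher in lactation, by a median of 0.14 beside 0.01 for all probes, and none passed the test. From the Cy5 signal alone, without the reference dye, 22 of 46 were higher and the median was -0.0015. In the limma fit 2 of 33388 probes (0.00599%) had an adjusted p under 0.05, and 3 of the 46 genes had an unadjusted p under 0.05, as did 3020 of the probes. With the dry array of PR cow 1 left out of the fit, again 0 of the 46 passed. Then 6 of the 46 had an unadjusted p under 0.05, as did 4006 of the probes. By complex the median differences were 0.09 for II, 0.14 for III with cytochrome c, 0.11 for IV and 0.14 for V. The median change was 0.17, 0.07, -0.01 and 0.24 in deer 1 to 4, with 37, 33, 23 and 41 of 47 genes higher in lactation. The dry and lactation arrays of each deer were on different slides, so slide and state cannot be told apart within a deer. Without deer dry array 4 the median was 0.07, and without the lactation arrays of deer 2 and 4 it was 0.13 with 37 of 46 genes above 0. On the 1 slide that held both states (dry deer 3, lactating deer 1 and 4) it was 0.09. With slide as a fixed block the median was 0.10, with 35 of 46 genes above 0. With no background correction it was 0.10, with 37 of 46 above 0.

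ATP5E (now ATP5F1E), the epsilon subunit of the catalytic head of ATP synthase, was lower in deer lactation where most subunits were higher. Dry deer 1 to 4 were at 0.91, 0.32, 0.38 and 0.58 and the same deer in lactation at 0.37, -0.07, -0.17 and -0.25. It was lower in 4 of 4 deer, by -0.57 (SE 0.20, adjusted p = 0.467, limma), although the groups overlapped at deer 1. PR cows went the other way, from -0.71, 0.12, -0.14 and -0.32 when dry to -0.11, 0.54, 0.18 and 0.23 in lactation, higher in 4 of 4 cows by 0.47, or 0.32 without dry cow 1. Of its probes, the one that shares 32 bases with the brightest gave -0.54 in deer, while its remaining probe, elsewhere in the gene, gave 0.31 in deer and -0.08 in PR cows (-0.06 without dry cow 1).

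ATP5J (now ATP5PF, coupling factor 6 of the peripheral stalk) had the largest positive value in deer, 0.79 (SE 0.33, adjusted p = 0.515, limma). Dry deer were at -5.06, -4.87, -4.72 and -5.03 and lactating deer at -4.60, -2.87, -5.07 and -3.99. The largest differences were in deer 2 and 4, whose lactation arrays had the narrow spread of ratios, and deer 3 was lower in lactation. When the arrays were scaled to equal spread the difference turned to -1.11. The part of that spread in the value was not tested. Groups did not overlap for 5 of the 46 genes, where they did not for 4.37% of 33346 probes; none of the 5 passed the test. ATP5F1, at -1.46, -1.25, -1.36 and -1.54 in dry deer, was at -1.05, -0.92, -1.13 and -1.09 in lactation, a difference of 0.36 (SE 0.23, adjusted p = 0.649, limma). COX7A1 went from -1.17, -1.18, -1.29 and -1.52 to -0.81, -0.81, -1.03 and -1.10, a difference of 0.35 (SE 0.14, adjusted p = 0.494, limma). Scaled to equal spread, these 2 turned to -0.27 and -0.24. Both were also the highest genes of their complexes in HF. SDHC (0.20), UQCRFS1 (0.19) and ATP5O (0.28) were the others, each higher in 4 of 4 deer.

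The remaining extremes in deer were small. SDHA was the lowest of complex II at 0.01. In complex III, CYCS was the highest at 0.30 and UQCRC1, a core protein, the lowest at -0.08. In complex IV the lowest was COX4I2, the lung form of subunit 4, at -0.10. Of the catalytic and electron-carrying subunits in deer, CYC1 differed by 0.17, ATP5A1 by 0.11, ATP5B by 0.07 and SDHB by 0.04. The membrane anchor SDHD differed by 0.14 and COX4I1 by 0.07.

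Whether the lactation difference itself differed between breeds or species was tested as an interaction. For HF against PR, 0 of 45 genes and 0% of 33468 probes passed an adjusted p of 0.05 (989 probes and 1 member had an unadjusted p under 0.05). The median of the HF minus PR effect was -0.36, with 1 of 45 above 0, and without the dry array of PR cow 1 it was -0.09 with 10 of 45 above 0. For deer against cattle, 0 of 46 genes and 0% of 35427 probes passed (2976 probes and 1 member unadjusted). The median was -0.04, and 0.08 without that array. Fitted with the animal as a block, all 3 lactation comparisons and both interactions again had 0 members past the threshold.

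Markers of neutrophils and monocytes showed other values. In HF, 6 of 6 neutrophil markers tested were higher in lactation (median 1.22), as were 6 of 6 monocyte markers (0.64), while the respiratory median was 0.01. In PR the neutrophil median was 0.57 and 0.37 without dry cow 1, and the monocyte median 0.48 and 0.28. In deer 0 of 6 neutrophil markers were higher (median -0.70) and the monocyte median was -0.05. None of these markers passed the test. The summed log2 ratio of the 7 neutrophil markers ran from -8.01 to -2.69 in dry and from -2.62 to 8.74 in lactating HF cows. In PR it ran from -8.51 to -4.32 and from -3.90 to 0.93, and in deer from -0.61 to 4.31 and from -7.68 to 0.40. The part of the cell mixture in the respiratory values was not tested.

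In HF and PR cows the lymphocyte medians lay closer to 0 than those of neutrophils and monocytes. The median differences between lactation and the dry period in HF, PR and deer were -0.13, 0.05 and -0.03 for T cells, -0.42, -0.02 and -0.04 for B cells and -0.36, -0.08 and 0.09 for NK and cytotoxic cells. Without dry cow 1 the PR values were -0.11, -0.22 and -0.07. The erythroid medians were 0.30, -0.10 (-0.14 without dry cow 1) and -0.07. In deer the haemoglobin gene HBB had the lowest erythroid value, -3.02, and the summed erythroid log2 ratio ran from -14.1 to -5.01 in dry and from -16.5 to -9.44 in lactating deer.

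The other nuclear genes of the pathway were described by the same counts, and none of them passed the test in any lactation comparison. The 38 complex I subunits had medians of -0.02 in HF, 0.39 in PR (0.12 without dry cow 1) and 0.15 in deer, with 18, 36 and 36 of 38 higher, close to the values of complexes II to V. Of the assembly factors of complexes II to V, 33 of 34 were tested, with medians of -0.06, 0.17 (0.12) and 0.20 and 10, 28 and 28 higher in lactation. The regulators of mitochondrial biogenesis had medians of -0.02, 0.14 (0.05) and 0.05. The ATP synthase inhibitor and the carriers of ADP, ATP and phosphate had medians of 0.05, 0.19 (-0.03) and 0.18. The 3 subunits of complexes IV and V that the array lists under other names, among them COX6C, had medians of -0.04, 0.56 (0.41) and 0.20, and COX6C itself differed by 0.75 in PR, or 0.59 without dry cow 1.

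The second question was whether the breeds differ within a state. In the dry period 2 of the 45 genes were higher in HF than in PR cows, at the 0.05 threshold, where 2.62% of 32910 probes passed. SDHD, a membrane anchor of complex II that helps bind ubiquinone, was at 0.08, 0.37, 0.13 and -0.05 in dry HF cows and at -1.11, -0.22, -0.45 and -0.41 in dry PR cows. The groups did not overlap, and the difference was 0.68, a 1.60-fold higher level (SE 0.15, adjusted p = 0.0287, limma). COX6A1, the widely expressed form of subunit 6A of complex IV, was at 0.11, 0.22, 0.25 and 0.25 in dry HF and at -1.62, -0.17, -0.37 and -0.21 in dry PR cows. It too had separate groups, with a difference of 0.80 or 1.74-fold (SE 0.21, adjusted p = 0.0472, limma). In all, 10 of the 45 genes had separate groups, where 8.99% of 32522 probes did, and the same 10 were separate without dry PR cow 1, where 14.1% of 32431 probes were.

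Neither call held without the dry array of PR cow 1. SDHD then differed by 0.49 (adjusted p = 0.0545, limma) and COX6A1 by 0.46 (adjusted p = 0.0712, limma), and 0.388% of 32473 probes passed, none of them a member. The median over the 45 genes went from 0.42 (39 of 45 higher in HF) to 0.19 (35 of 45). The number of members called was 0 also without HF dry array 2 or 3 or PR dry array 3 or 4, and 20 without PR dry array 2. It was 1 without any single one of 15 other arrays, where COX6A1 lost its call, and 2 without deer dry array 3 or deer lactation array 1 or 2. On the 1 slide that held dry cows of both breeds, HF cow 4 exceeded PR cow 2 by 0.18 in SDHD, by 0.42 in COX6A1 and by a median of 0.11 over the 45 genes, 33 of them higher. The other dry cows of the breeds were on different slides, so slide and breed cannot be told apart among them.

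The second SDHD probe did not follow the first. It lies across chr15:22726724-22732972 (UMD 3.1), against chr15:22733686-22733745 for the brightest probe, and gave a difference of -0.26 between dry HF and dry PR cows (-0.31 without dry PR cow 1). Averaging the 2 probes, SDHD differed by 0.21 (adjusted p = 0.236, limma), or by 0.09 without that cow (adjusted p = 0.628, limma). COX6A1 had 1 probe, at chr17:64997062-64997121. UQCRB had the largest difference, 1.22 (SE 0.34, adjusted p = 0.0528, limma), from 0.31, 0.89, 0.46 and 0.51 in dry HF cows against -1.97, 0.38, -0.63 and -0.46 in dry PR cows. Dry PR cow 2 overlapped the HF cows, and without dry PR cow 1 the difference was 0.78 (adjusted p = 0.14, limma). The other UQCRB probes gave 0.72 and -0.14 without that cow. ATP5I differed by 0.63 (SE 0.18, adjusted p = 0.0572, limma), or by 0.37 without that cow (adjusted p = 0.128, limma). Both were called when probes were required to be above background on all 24 arrays.

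At peak lactation none of the genes differed between the breeds at that threshold, and 0% of 32942 probes passed (4693 probes and 3 of the 45 members had an unadjusted p under 0.05). No slide held lactating cows of both breeds, so slide and breed cannot be told apart in this comparison. The median difference was 0.04, with 27 of 45 higher in HF, beside 0.01 for all probes. When arrays were centred on their median it was 0.28, with 41 of 45 higher, beside 0.04 for all probes. COX8B, a heart and muscle form of subunit 8, had the lowest adjusted p. It was at -0.01, -0.10, -0.17 and -0.40 in lactating HF and at 0.47, 0.32, -0.02 and 0.32 in lactating PR cows, a difference of -0.44 (SE 0.12, adjusted p = 0.11, limma). With the dry array of PR cow 1 left out of the fit, 431 of 32942 probes passed in this comparison of lactating cows, no member among them. Then 12 of the 45 members had an unadjusted p under 0.05, as did 5933 of the probes.

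**Figure D4:**
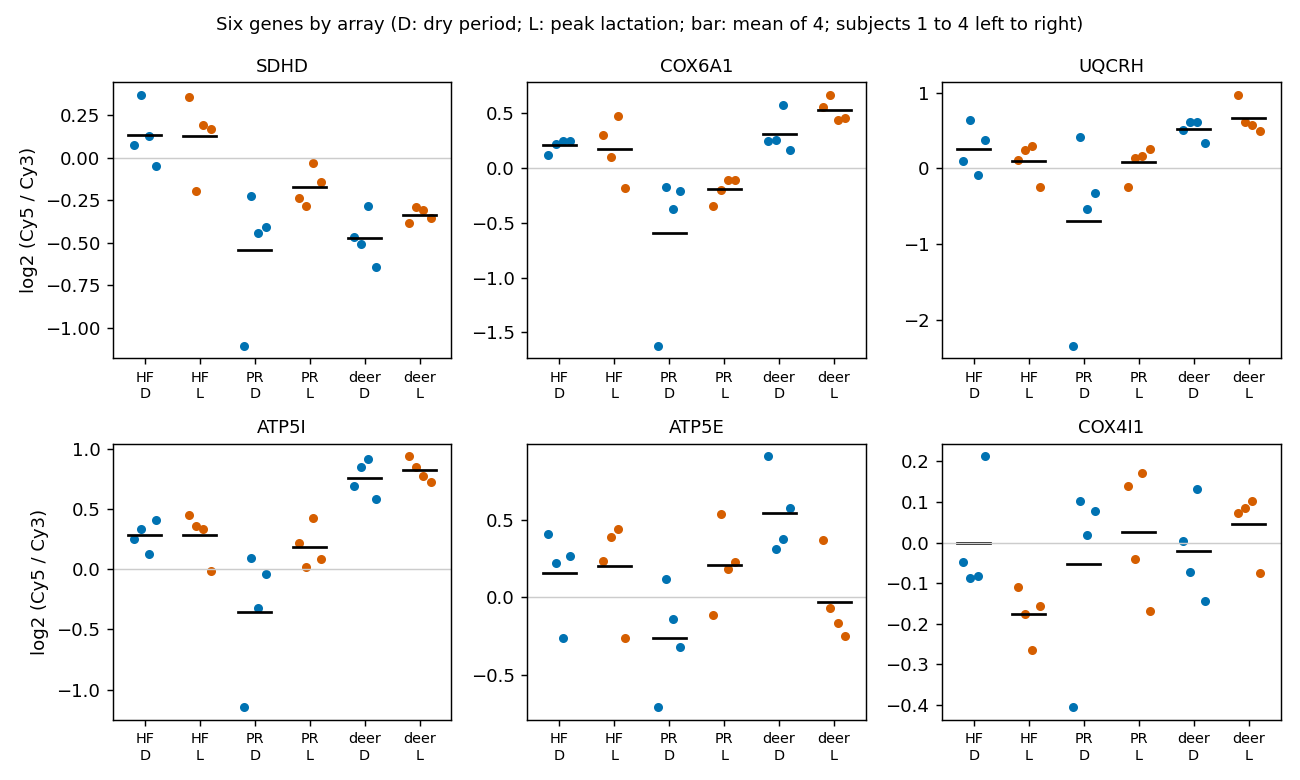
Log2 ratio of Cy5 over Cy3 of SDHD, COX6A1, UQCRH, ATP5I, ATP5E and COX4I1 in each animal (D, dry period; L, peak lactation; points are subjects 1 to 4 from left to right and bars are means of 4). The dry PR values of SDHD and COX6A1 all lie below the dry HF values, with cow 1 lowest at -1.11 and -1.62, and ATP5E in deer is lower in lactation in each animal.

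Tissue forms of a subunit can be told apart by their own genes. COX7A1 (muscle) and COX7A2 (general) were both above background on all arrays. On the dry array of PR cow 1 COX7A2 was at -1.77 while COX7A1 was at -0.09. COX6A2, the muscle form of 6A, stayed between -0.18 and 0.16 on all 24 arrays, where COX6A1 ran from -1.62 to 0.67. COX6B2, a form best known from testis, was at -0.11 on that array against -1.26 for COX6B1. Its lactation differences were -0.18, -0.08 and -0.01 in HF, PR and deer. COX8A was at -1.05 and COX8B at -0.00 there. The c-ring genes ATP5G1, ATP5G2 and ATP5G3, which encode the same mature protein, differed by 0.40, 0.15 and 0.51 in PR (0.16, -0.04 and 0.20 without dry cow 1), by -0.03, -0.23 and 0.11 in HF and by 0.14, 0.19 and 0.18 in deer. COX4I2 was above background on 11 of 24 arrays and COX7B2, another form linked to testis, on 7. COX7B2 was in no test, COX4I2 only in those with deer, and COX7B differed by 0.41 in PR, or 0.36 without dry cow 1.

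The third question was how deer compare with cattle (the mean of both breeds) within a state. In the dry period 28 of 46 genes differed at an adjusted p of 0.05, where 56.7% of all 35169 probes did. Of these 19 were higher in deer and 9 lower, where 26.2% of all probes were higher and 30.4% lower. In lactation 26 of 46 differed, 16 higher and 10 lower, where 48.6% of 34259 probes did, 21.7% higher and 26.9% lower. The median difference was 0.16 when dry and 0.04 in lactation. Without PR dry array 1 the dry comparison gave 33 genes, 21 higher and 12 lower, where 59.3% of 35028 probes passed, 27.3% higher and 32.1% lower, and the median was 0.08. With that array left out of the fit, the lactation comparison gave 29 genes, 19 higher and 10 lower. Of 34259 probes 17821 then passed, 8101 higher and 9720 lower. No slide held both deer and cattle, so slide and species cannot be told apart. Nor can the level of a transcript and how well it binds a probe of cattle sequence.

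The lowest deer values were those of ATP5J, at -4.78 in the dry period (SE 0.29, adjusted p = 1.48e-11, limma) and -4.23 in lactation. SDHA followed at -1.60 and -1.64, then ATP5F1 (-1.20 and -1.25), COX8A (-1.16 and -1.11), COX7A1 (-1.10 and -0.99) and ATP5D, the delta subunit of ATP synthase (-0.80 and -0.95). SDHA values were close within the species: dry deer were at -1.71, -1.72, -1.73 and -1.74. These are of its brightest probe, which put deer at -1.62 relative to cattle with the states averaged. The other SDHA probes gave -0.05, 0.08 and -0.22. CYC1 was also lower, by -0.80 and -0.82. Without PR dry array 1 the dry values were -4.95 for ATP5J, -1.71 for SDHA, -1.38 for ATP5F1, -1.29 for COX8A, -1.09 for COX7A1, and -0.92 for both ATP5D and CYC1, all past the threshold. The highest was UQCRQ, a small complex III subunit, at 1.83 (SE 0.18, adjusted p = 1.63e-08, limma) and 1.65, from 1.71, 1.89, 1.96 and 1.62 in dry deer. With the states averaged, this brightest UQCRQ probe gave 1.74 and its other probe -0.01. ATP5J2 (1.28 and 1.19), COX7A2 (1.17 and 0.87), ATP5L (1.14 and 1.14), UQCRB (1.13 and 1.04) and COX5B (0.79 and 0.70) followed. In lactation ATP5SL, at 0.87, was among the 6 highest. The dry values without that array were 1.70 for UQCRQ, 1.25 for ATP5J2, 0.95 for COX7A2, 1.03 for ATP5L, 0.91 for UQCRB and 0.63 for COX5B, all past the threshold. Of the other catalytic and electron-carrying subunits, the complex II anchors and COX4I1, 3 were higher in dry deer: SDHC (0.63), UQCRFS1 (0.78) and ATP5B (0.51). SDHB (0.09), CYCS (-0.08), COX4I1 (0.01), SDHD (-0.27) and ATP5A1 (0.31) did not pass the test. With that array left out the first 3 were 0.50, 0.62 and 0.44 and again passed. SDHD (-0.36, adjusted p = 0.00281, limma) and ATP5A1 (0.20, adjusted p = 0.0485, limma) then passed too, while SDHB (-0.03), CYCS (-0.25) and COX4I1 (-0.05) did not.

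These directions depended on how the arrays were centred and on the probe. When each array was centred on its median in place of loess, the median of all probes moved to 0.21 in the dry and 0.16 in the lactation comparison, and the split became 28 higher and 5 lower in the dry period (84.8% higher, against 67.9%) and 22 and 7 in lactation (75.9% against 61.5%). With each gene as the mean of all its probes it was 12 and 15 (44.4% higher) and 10 and 17 (37.0%). ATP5J2 and COX5B, among the highest by their brightest probe, then turned to -0.43 and -0.04 in the dry period. Single probes above background on all arrays differed in other genes too, with the states averaged. ATP5D was at -0.87 by its brightest probe and 0.27 by another. ATP5L was at 1.14, 1.13, -0.07 and -0.82, and CYC1 at -0.81, -0.76 and -0.04. ATP5F1 (-1.22 and -0.62), COX8A (-1.14 and -1.01) and COX7A1 (-1.04 and -0.86) kept their direction.

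Probes of a single gene disagreed about deer far more than about lactation. For 37 genes with 2 or more probes above background on all arrays (106 probes), the spread between a gene's probes in the deer minus cattle difference had a median of 1.00 in the dry period and 0.91 in lactation, and exceeded 1 in 18 and 16 genes. Without PR dry array 1 the dry median was 0.93 and 15 genes exceeded 1. In the lactation comparisons the median spread was 0.05 in HF, 0.14 in PR (0.08 without dry cow 1) and 0.10 in deer, and exceeded 1 in 0 genes. Signs disagreed for 21 and 18 genes in the deer comparisons and for 9, 6 and 6 in HF, PR and deer lactation (20 for dry deer and 13 for PR without dry cow 1). The widest lactation disagreements were those of ATP5E, from -0.57 to 0.31 in deer and from -0.08 to 0.73 in PR (-0.06 to 0.32 without dry cow 1), and of UQCRC2 in deer, from 0.0088 to 0.79. In HF the widest was that of UQCRC1, from -0.03 to 0.29. Of 118 pairs of probes of a gene, the mean difference between the 2 probes differed between the 4 deer and the 8 cattle in 93 pairs at an adjusted p under 0.05 (two-sided exact permutation test with both states of an animal averaged, 495 ways of choosing 4 animals, smallest possible p 0.00202). In 81 of the 93 the deer and cattle values did not overlap, and in 12 they did. The number of such pairs was 96 without PR dry array 1. The 118 pairs come from the same 37 genes and many share a probe, so they are not independent.

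**Figure D5:**
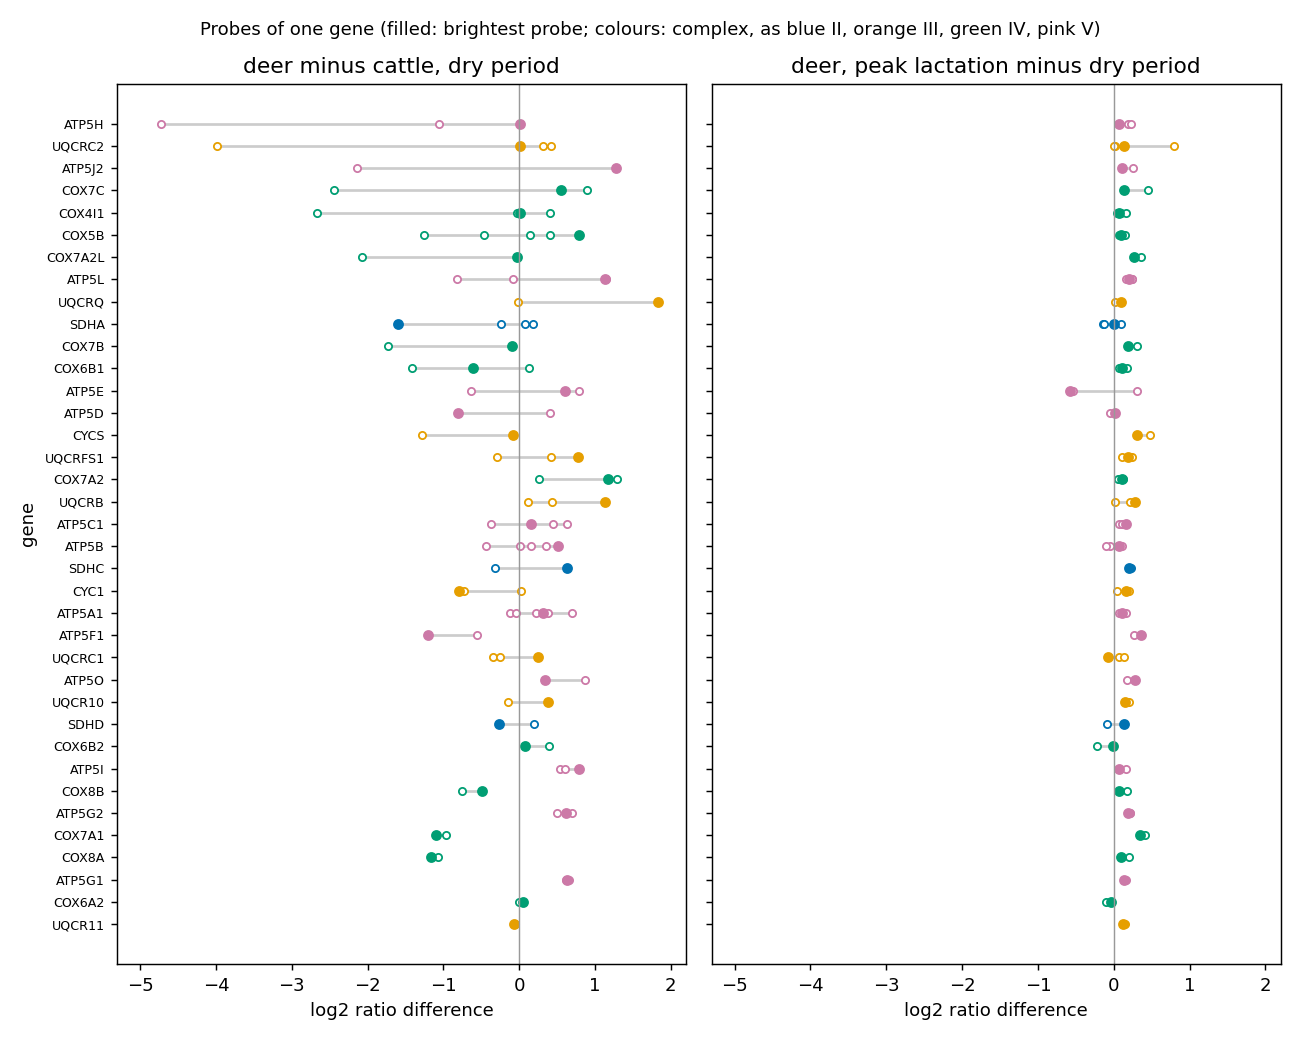
Log2 ratio difference of each probe (points; filled, the brightest) for 37 genes with 2 or more probes, as deer minus cattle in the dry period on the left and deer in lactation minus dry on the right. The probes of a gene spread by a median of 1.00 on the left, up to 4.73 for ATP5H, and lie close together on the right.

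Even probes that shared most of their bases differed, which is why 3 such pairs are printed here. Each line gives 30 of a probe's 60 bases, 5′ to 3′, from the deposited array files, and capitals mark bases that its partner does not hold. For the first of each pair the first 30 bases are shown and for the second the last 30, so that the unshared ends of both appear.
COX7B probe 1: CCCCAAAggaatggagagaacagtaatcat
COX7B probe 2: gatttaatactgaattgtttcaaAATCAAC
ATP5H probe 1: AATTGAGACCTTATAAGCTCGagtccagga
ATP5H probe 2: ataaactctGGACATTAAAAATAATTACAT
COX6B1 probe 1: TCCCCAccctgggatcctgactcatggtat
COX6B1 probe 2: taataaatgctcgttggaaacgtgAAAAAA

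The COX7B probes (a small subunit of complex IV) lie at chrX:79540714-79540773 and chrX:79540707-79540766, minus strand, UMD 3.1 as listed in the files, and share 53 bases with a shift of 7. In dry HF cows probe 1 ran from 0.06 to 0.53 and probe 2 from 0.05 to 0.49, so the probes gave the same picture in cattle. In dry deer probe 1 ran from -0.22 to 0.13 and probe 2 from -1.88 to -1.34. With states averaged, probe 1 put deer at -0.09 and probe 2 at -1.65 relative to cattle, a gap of 1.56 that was 1.42 to 1.71 in each deer and -0.22 to 0.04 in each cow (exact permutation test, p = 0.00202, adjusted p = 0.00314).

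The ATP5H probes (a peripheral stalk subunit, now ATP5PD) lie at chr19:57024766-57024825 and chr19:57024787-57024846, plus strand, and share 39 bases with a shift of 21. In dry deer probe 1 ran from -5.16 to -5.03 and probe 2 from -1.68 to -1.35, while in dry HF cows they ran from -0.32 to -0.01 and from -0.31 to 0.02. The remaining ATP5H probe, the brightest, shared no bases with them and put deer at 0.01 relative to cattle. By the choice of probe, the deer level of this gene could thus be read as 0.01 or as -4.73 relative to cattle.

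The COX6B1 probes (a subunit at the face of complex IV that meets cytochrome c) share 54 bases with a shift of 6. The files list probe 1 at chr18:46574257-46574316 and probe 2 at chr5:94364211-94364270, although their sequences overlap. Probe 1 put deer at -0.65 and probe 2 at -1.42 relative to cattle, and the gap between them was 0.76 to 0.80 in each deer and -0.03 to 0.06 in each cow (exact permutation test, p = 0.00202, adjusted p = 0.00314). In all, 18 pairs shared 30 to 59 bases. Of these, 6 differed by over 0.5 in the deer minus cattle difference and 11 by under 0.25, so shared sequence did not always give a shared value.

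Probes without shared sequence could differ as much. COX4I1 was at 0.06 relative to cattle by its brightest probe (chr18:11807173-11807232) and at -2.61 by another (chr18:11807284-11807342), with the states averaged. UQCRC2, a core protein of complex III, was at -0.02 by its brightest probe and at -3.74 by another. In PR cows UQCRC2 also showed a single high value: lactating cow 1 was at 1.46, against -0.16, 0.18 and -0.14 in the others. For the other genes named, the brightest probes lie at chr20:71940783-71940842 (SDHA), chr3:100391875-100391934 (UQCRH), chr14:70334009-70334068 (UQCRB), chr6:108851279-108851338 (ATP5I), chr13:57869704-57869763 (ATP5E), chr1:10076892-10076951 (ATP5J) and chr7:46070259-46070318 (UQCRQ). All positions are the files' own on UMD 3.1, where no exon or UTR annotation was used here. Of the 126 probes 119 had a listed position and 7 were unmapped.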

How the data were processed

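Blood RNA of 12 animals in both states was hybridised to 24 Agilent 2-colour arrays. Fluorescence intensity per spot, its background, the log10 ratio and the yes or no calls for background, saturation and outliers were written by Feature Extraction 10.10.1.1, per the file headers (10.7.3.1 per the submitters' processing notes, which also name build UMD 3.1). The authors' deposited lists of selected probes were used only to count members.

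Mean intensities as deposited were corrected with normexp (offset 50, median background) and normalized by loess within each array, with 1417 control spots and outlier spots at weight 0 and outlier spots then left out. Spots of a probe were averaged as log2 ratios, and the authors' own log2 or log10 values entered only as an alternative. In limma 3.58.1 (R 4.3.3, statmod 1.5.0) 6 group means were fitted over all 24 arrays. Testing was limited to probes that Agilent's call put well above background in Cy5 on at least 3 of 4 arrays of a group compared, and p-values were adjusted over all probes tested by Benjamini-Hochberg. A gene counted as called at an adjusted p under 0.05. Figures used Python 3.11.15 and matplotlib 3.10.9. The number of arrays, 4 per group, limits the precision.

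The members and gene lists were chosen with earlier results of these data known. Genes were named if called (of more than 12, the 6 highest and 6 lowest), if highest or lowest of a complex in a lactation comparison, if in a set of catalytic subunits or tissue forms, if their PR sign turned without PR dry array 1, or if their probes disagreed most. UQCRB, ATP5I and COX8B in the breed comparisons, members with separate groups, and COX7B, ATP5H, COX6B1 and UQCRC2 in the probe comparison were named after their values were seen. Subject numbers mark the same animals, per the series' design text. The correlation of an animal's 2 deviations from its group means exceeded 0.1 for 4 of 4 HF cows, for 2 of 4 PR cows and for 4 of 4 of the deer. All 47 names were matched to RefSeq symbols, and 17 have another current symbol. On simulated data the fit recovered 88% of 100 probes changed by 1 log2 unit among 32582 in the HF comparison, 91% of 100 among 32098 in PR and 91% of 100 among 32846 in deer. Of the calls there 3.59%, 4.02% and 6.83% were false, and 8.21% between dry breeds. The simulated noise was independent between probes and arrays, so no array stood apart. Changes under 1 log2 unit were not simulated. Alternatives were other background corrections, normalizations, filters, probe summaries, array weights, slide or animal as a block, and single arrays left out.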

Additional observations from a re-analysis of the deposited data

Results flagged for a closer look

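Within groups of 4 arrays, the gap between the most extreme array and its nearest neighbour was divided by the group's range. For 29 of the named genes and the medians of the complexes and of all members, 204 such groups were examined. The other named genes were not examined in this way. A wide gap was found in 20, and chance gives such a gap in about 1 in 20 independent groups. These groups are not independent, since the genes share arrays. Genes whose PR sign turned without PR dry array 1 were also among those examined. The number found is therefore not a test against chance. Of the 20, 12 were in dry PR cows and 11 of these had PR cow 1 as the separate array. These were the medians of complex II (0.916) and of complex III (0.863), and SDHA (0.937), SDHB (0.950), UQCRFS1 (0.848), COX4I1 (0.835), COX6A1 (0.864), COX7C (0.928), ATP5A1 (0.879), ATP5G2 (0.885) and ATP5D (0.882). In dry PR cows COX7A1 had cow 2 apart (0.862).

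In the other groups UQCRFS1 had dry HF cow 1 apart (0.842) and COX4I1 dry HF cow 4 (0.869). COX7C had HF cow 4 apart in lactation (0.917). ATP5J had PR cow 3 apart in lactation (0.906). Among lactating deer, COX4I1 had deer 4 apart (0.833), COX7C deer 1 (0.991) and ATP5D deer 2 (0.845), and ATP5O had dry deer 4 apart (0.848).

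Of 29 genes examined, 2 moved in opposite directions in every animal of a pair of groups, and these differences were not tested on their own. ATP5E was higher in lactation in every PR cow and lower in every deer, and the PR effect exceeded the deer effect by 1.05. ATP5G2 was lower in lactation in every HF cow and higher in every deer, with an HF minus deer effect of -0.42.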

How the results depend on the processing

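Of 352 counts of called genes recomputed, 314 stayed within 1.5 times the main count, as did 262 of 270 medians within the spread between animals and 1959 of 2034 single-gene values on their side of the threshold. That spread was 0.10 to 0.12, but 0.33 to 0.39 in the comparisons with dry PR cows, where it includes dry cow 1. Without the dry array of PR cow 1 the PR lactation median went from 0.35 to 0.10 and the dry breed median from 0.42 to 0.19. Both moves counted as within the spread, so this tally does not register them. No lactation comparison of cattle gained a called member under any alternative run. With the animal as replicate block, 0 members were called in HF, PR, deer and both interactions. The count between dry breeds, 2, was 0 to 20 with 1 array left out, 0 without HF subjects 2 and 3, with only the groups compared or from Cy5 alone, 1 with scaling, with no filter or with all probes averaged, 4 with no background correction, with probes above background on all 24 arrays or with the analysis of variance and Tukey comparison, 14 with array weights and 30 with median centring. Between lactating breeds it was 1 in place of 0 with scaling, array weights or Tukey (COX8B). Array weights, whose fit stopped before converging and gave 1 deer array a weight of 29.7, also gave 10 for deer lactation and 3 for the deer minus cattle effect in place of 0. Scaling gave 15 for dry deer minus cattle in place of 28. Median centring moved the median to 0.86 between dry breeds, 0.28 between lactating breeds, 0.73 for dry and 0.50 for lactating deer minus cattle. Over all probes the medians were then 0.15, 0.04, 0.21 and 0.16. The lactating deer minus cattle median was 0.21 with Agilent's processed ratio, beside 0.18 for all probes, and -0.077 with all probes of a gene averaged. The deer lactation median was -0.0015 from Cy5 alone, and the HF one -0.20 with array position as a factor, added after seeing the data, as were slide as a fixed block and leaving out deer lactation arrays 2 and 4. Within HF, array position and state cannot be told apart.

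Signs turned for COX7A1 in HF (-0.034 without subjects 2 and 3), ATP5F1 in HF (-0.14, array position), ATP5J (-1.11), COX7A1 (-0.24) and ATP5F1 (-0.27) in deer lactation with scaling, and ATP5J2 (-0.43 dry, -0.41 lactation) and COX5B (-0.042 dry, -0.18 lactation) in deer minus cattle with all probes averaged. The cause was not tested. The Tukey comparison was not run for deer minus cattle or for the interactions, which are not pairwise.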

Other observations

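The subunits of complexes III to V that are made from mitochondrial DNA were measured too. All 5 genes (CYTB of complex III, COX2 and COX3 of complex IV, ATP6 and ATP8 of complex V) were lower in lactation in HF, by a median of -0.39, and 15 of their 15 probes were lower. None passed the test, and within HF array position and state cannot be told apart. CYTB, cytochrome b, was at 0.02, 0.28, 0.12 and 0.26 in dry HF cows 1 to 4 and at -0.10, -0.14, -0.69 and 0.03 in lactation. It was lower in 4 of 4 cows, by -0.40 (SE 0.15, adjusted p = 0.501, limma). COX3, a core subunit of cytochrome c oxidase, differed by -0.56 (SE 0.29, adjusted p = 0.721, limma), also lower in 4 of 4 cows.

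In PR cows the median of these 5 genes was -0.07, and 12 of 15 probes were lower. Without dry cow 1 these were -0.16 and 13 of 15. COX3 was at 1.08, 0.55, 0.65 and 0.59 when dry and at 0.41, 0.42, 0.02 and 0.50 in lactation, with separate groups and a difference of -0.38 (SE 0.29, adjusted p = 0.883, limma), or -0.26 without dry cow 1. On the dry array of cow 1 COX3 had its highest value of the cattle arrays, while ATP8 (-0.71) and COX2 (-0.52) had their lowest. ATP6 (0.21) and CYTB (0.06) lay inside the range of the other cattle arrays there. In deer the median of the 5 genes was 0.06 with 3 of 5 higher in lactation by their brightest probes, while 10 of 15 probes were lower. Relative to cattle, dry deer were at -5.32 for ATP6, -3.74 for COX2, -1.94 for CYTB, -1.37 for ATP8 and -1.05 for COX3, each past the threshold. Without PR dry array 1 these were -5.34, -3.82, -1.94, -1.47 and -0.99, again each past it.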
